A study of Homo sapiens with 16 samples.

Results

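Promoters of long noncoding RNA (lncRNA) genes that lie away from every protein-coding start were examined for trimethylation of histone H3 at lysine 4 (H3K4me3) in MCF-10A, an established nontransformed human breast epithelial cell line. The deposited H3K4me3 peaks of 3 libraries from cells given vehicle (PBS) and 3 libraries from cells given 5 mM octanoic acid (OA), a medium-chain fatty acid, were merged where they overlapped by 1 bp, and regions called in 2 or more of these libraries were retained. Of 18734 such regions on chromosomes 1 to 22, X and Y, 1055 were shorter than 3000 bp, lay within 1 kb of the start of a GENCODE 44 lncRNA transcript and lay more than 3 kb from the start of every protein-coding transcript. These 1055 regions are called lncRNA promoters here, and each carries the name of the lncRNA gene with the nearest start. They were set beside 12725 coding promoters, which are regions under 3000 bp within 1 kb of a protein-coding start, and beside 4006 distal regions, which are equally short and more than 3 kb from any coding or lncRNA start.

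The assay was CUT&RUN, in which an antibody directs a nuclease to cut and release the DNA around the marked nucleosomes. Vehicle and OA were each given for 24 hours to cells seeded as biological triplicates. H3K27me3 was profiled in 3 vehicle and 3 OA libraries, and untreated MCF-10A cells gave 2 H3K4me3 libraries (the positive control) and 2 IgG libraries (the negative control). All 16 libraries came from this 1 line, so the groups shared a genotype. The labels do not say whether vehicle and OA libraries of the same replicate number were processed together, and the numbers were not used as pairs.

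H3K4me3 marks the nucleosomes that flank transcription starts, and it is deposited chiefly at CpG-rich promoters by SET1 and MLL complexes. H3K27me3, the product of the Polycomb enzyme EZH2, marks repressed promoters. Many lncRNA genes share a promoter with a divergent coding gene, and their H3K4me3 cannot then be assigned. A lncRNA promoter that stands alone carries a signal of its own, and among such genes are hosts of microRNAs and small nucleolar RNAs (snoRNAs), scaffolds of nuclear bodies and regulators of X inactivation.

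The 5 windows printed next show the range of sequence found under these peaks. Each is 300 bases of hg38 centred on the summit of the region's strongest peak, written 5′ to 3′ on the strand of the lncRNA, with every CpG in capitals. NORAD, chr20:36050619-36050918 on the minus strand, and LINC01145, chr1:145215024-145215323 on the minus strand, are among the strongest promoters called in all 6 libraries. MIR205HG, chr1:209429971-209430270 on the plus strand, was called in all 6, with its summit on a CpG-poor sequence 1304 bp downstream of the lncRNA start. LINC00173, chr12:116533402-116533701, and MIR3142HG, chr5:160439001-160439300, both on the plus strand, were called in the 3 OA libraries and in no vehicle library.
NORAD: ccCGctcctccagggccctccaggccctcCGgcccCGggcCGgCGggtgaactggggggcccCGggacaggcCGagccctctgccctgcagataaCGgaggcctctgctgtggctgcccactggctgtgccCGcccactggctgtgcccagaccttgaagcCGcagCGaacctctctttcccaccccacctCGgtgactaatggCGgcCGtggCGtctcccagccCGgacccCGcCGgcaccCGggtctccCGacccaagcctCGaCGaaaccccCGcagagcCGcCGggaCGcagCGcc
LINC01145: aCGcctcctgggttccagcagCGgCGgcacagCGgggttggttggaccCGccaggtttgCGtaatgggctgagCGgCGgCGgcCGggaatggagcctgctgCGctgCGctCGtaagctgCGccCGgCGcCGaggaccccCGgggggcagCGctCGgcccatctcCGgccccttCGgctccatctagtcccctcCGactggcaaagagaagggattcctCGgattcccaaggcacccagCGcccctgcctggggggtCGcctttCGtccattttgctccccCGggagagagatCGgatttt
MIR205HG: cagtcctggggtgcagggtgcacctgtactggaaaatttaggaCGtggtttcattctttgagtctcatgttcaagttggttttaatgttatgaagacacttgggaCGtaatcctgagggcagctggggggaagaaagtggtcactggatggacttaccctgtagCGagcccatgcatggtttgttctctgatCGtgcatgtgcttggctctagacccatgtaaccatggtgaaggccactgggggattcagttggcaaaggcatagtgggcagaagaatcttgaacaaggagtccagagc
LINC00173: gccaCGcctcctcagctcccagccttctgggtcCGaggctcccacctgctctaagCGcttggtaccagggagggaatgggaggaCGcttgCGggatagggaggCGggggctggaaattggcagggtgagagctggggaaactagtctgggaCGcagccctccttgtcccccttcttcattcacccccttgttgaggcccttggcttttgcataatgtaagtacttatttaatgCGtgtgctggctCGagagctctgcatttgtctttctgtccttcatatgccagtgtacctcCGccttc
MIR3142HG: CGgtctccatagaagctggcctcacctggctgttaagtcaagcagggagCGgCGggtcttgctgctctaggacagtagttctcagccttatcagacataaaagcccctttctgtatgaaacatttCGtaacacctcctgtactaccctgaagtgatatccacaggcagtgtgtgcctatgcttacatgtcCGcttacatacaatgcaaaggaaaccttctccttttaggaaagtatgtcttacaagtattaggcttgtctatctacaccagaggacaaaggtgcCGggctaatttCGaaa

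The NORAD window held 27 CpGs and the LINC01145 window 29, at GC contents of 74.0% and 68.7%. The MIR205HG window held 4 CpGs at a GC content of 50%, MIR3142HG held 7 at 46.7%, and LINC00173 held 10 at 57.3%. High and low CpG density were thus both found under peaks called in every library. The summits of NORAD, LINC01145, MIR205HG and MIR3142HG lay 249, 572, 1304 and 557 bp downstream of the lncRNA start, so these windows do not hold the start. The LINC00173 window, with its summit 130 bp downstream, does.

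Of the microRNA hosts, 4 are shown with the mature microRNA that lies inside the gene on the same strand, from the RefSeq annotation of GRCh38.p14, with the seed (bases 2 to 8) in capitals. No sequence was read from the cells.
miR-205-5p of MIR205HG: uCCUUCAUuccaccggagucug
miR-31-5p of MIR31HG: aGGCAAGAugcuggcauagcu
miR-17-5p of MIR17HG: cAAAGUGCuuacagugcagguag
miR-146a-5p of MIR3142HG: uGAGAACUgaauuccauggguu

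The H3K4me3 region ended 757 bp before miR-205-5p and 740 bp before miR-17-5p, whereas miR-31-5p and miR-146a-5p lay 46388 bp and 45848 bp from theirs. These 4 microRNAs have 4 different seeds. None of the 4 marked regions covered the mature microRNA itself. Their place within 1 kb of a start of the host gene was set by the rule that picked them.

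The vehicle and OA H3K4me3 libraries held 16086 to 21033 peaks each on these chromosomes, the untreated libraries 12924 and 11242, and the IgG libraries 1280 and 1131. Read totals are not in the peak lists. The lowest background recovered from each peak's fold and p, in fragments per position, was 0.450 in vehicle replicate 3 and 0.633 to 0.853 in the other 5, and vehicle replicate 3 also had the shortest peaks, with a median of 559 bp against 736 to 1028 bp. Vehicle replicate 3 therefore stood apart, and the main comparisons are given with and without it. H3K4me3 was present in all 6 libraries at the starts of 7 of 11 epithelial or basal markers, including KRT5, KRT17, EGFR and ITGB4, but at KRT14 in 2 and at TP63 in 3 libraries. ESR1 and PGR, the oestrogen and progesterone receptors, had no peak in any library, whereas FOXA1 and GATA3, the other 2 markers of hormone-receptor-positive luminal cells, had one in all 6. Of the immune, endothelial and stromal markers, 5 of 6 had none, the exception being COL1A1 in 5 libraries.

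Of the 1055 lncRNA promoters, 899, 807 and 564 had a peak in vehicle replicates 1 to 3, and 781, 908 and 1019 in OA replicates 1 to 3. The groups overlapped, and vehicle replicate 3 had the fewest. The means were 757 ± 173 for vehicle and 903 ± 119 for OA (SD, n = 3 libraries each), a difference of 146 that was within the spread between libraries (two-sided exact permutation p = 0.4, adjusted p = 0.8 over 4 tests, smallest possible p 0.1). Without vehicle replicate 3 the difference was 49.7 promoters (exact permutation p = 0.7).

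The called length at these promoters had a median of 737, 820 and 559 bp in the vehicle libraries and of 664, 850.5 and 901 bp in the OA libraries. The means of these medians, 705 ± 133 bp and 805 ± 125 bp (SD, n = 3), were not separated by the libraries (exact permutation p = 0.4, adjusted p = 0.8). Without vehicle replicate 3 the OA libraries were longer by 26.7 bp (exact permutation p = 0.8). Peak strength was expressed as the percentile of the peak's p among all peaks of the same library. Its median over the promoters called in each library was 44.01, 38.2 and 48.2 for vehicle and 43.8, 41.8 and 47.8 for OA. OA and vehicle were not separated (exact permutation p = 1). A typical called lncRNA promoter lay a little below the middle of its library's peaks in every sample. Promoters without a peak, 491 of the 1055 in vehicle replicate 3, do not enter these medians.

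**Figure D1:**
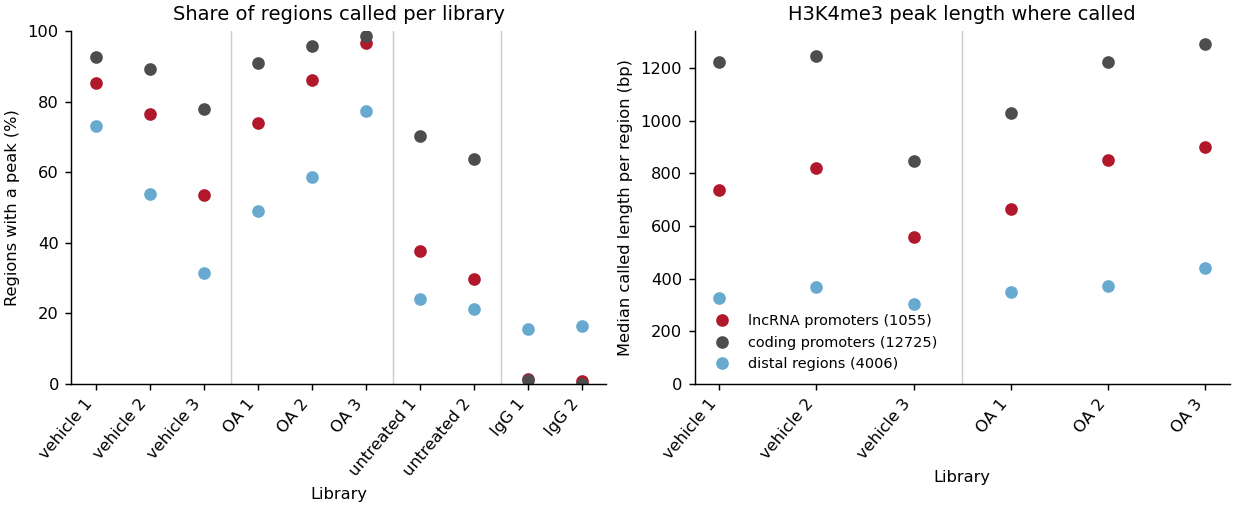
Share of regions with a peak (left, %) and median called length (right, bp) in each library, for lncRNA promoters (red), coding promoters (grey) and distal regions (blue), 1 point per library. In each of the 6 vehicle and OA libraries the lncRNA promoters lie between the coding promoters and the distal regions in both panels, and vehicle replicate 3 is lowest in both for each of the 3 sets.

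The lncRNA promoters were called less often, were shorter and were weaker than coding promoters in 6 of 6 vehicle and OA libraries. The share called was 78.6% on average against 90.9%, a difference of −12.3 points (range −24.4 to −2.12). The called length was shorter by 389 bp on average, at 755 against 1144 bp, and the strength percentile was lower by 21.1, at 43.96 against 65.1. Against distal regions the direction was the opposite in 6 of 6 libraries, with 21.4 points more regions called, 394.5 bp more length and a strength percentile higher by 17.2. Each of these 6 differences had an exact sign-flip permutation p of 0.031, the smallest that 6 libraries allow, and an adjusted p of 0.0357 over 8 tests. The calls of the same libraries and the 3000 bp limit also picked the regions compared. The p therefore shows only that the order repeated from library to library. Leaving out any library gave 0.0625, the smallest that 5 libraries allow, with the same directions.

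In untreated cells the share of regions called had the same order. H3K4me3 peaks of the 2 untreated libraries were found at 37.7% and 29.9% of the lncRNA promoters, at 70.2% and 63.8% of the coding promoters and at 24.2% and 21.2% of the distal regions. The order of strength was not the same, since the median percentile of the called peaks was 39.2 and 41.7 at lncRNA promoters, 58.0 and 55.1 at coding promoters and 78.3 and 87.7 at distal regions. The IgG libraries had a peak at 1.52% and 0.948% of the lncRNA promoters, 18 regions in all (1.71%). Their peaks were at 4.17% and 3.66% of all regions, at 0.982% and 0.0393% of coding promoters and at 15.6% and 16.5% of distal regions.

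Called regions spanned 197 to 2996 bp, with a median of 1005 bp and an interquartile range of 650.5 to 1382.5 bp. Only 4 further regions met both distance limits but were 3000 bp or longer. The nearest inside the limit were DLEU2 at 2996 bp and MIR205HG at 2991 bp, and the nearest outside were MIRLET7A1HG at 3075 bp and LINC01962 at 3101 bp, all 4 called in 6 libraries. The nearest coding start was 31285 bp away in the median, and 375 of the 1055 (35.5%) lay more than 50 kb from any. The lncRNA start itself fell inside 851 regions (80.7%), so that these cover the start and the first bases of exon 1, and 669 summits (63.4%) lay downstream of it, with a median offset of 119 bp. For coding promoters 69.8% of summits lay downstream, with a median of 138 bp.

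**Figure D2:**
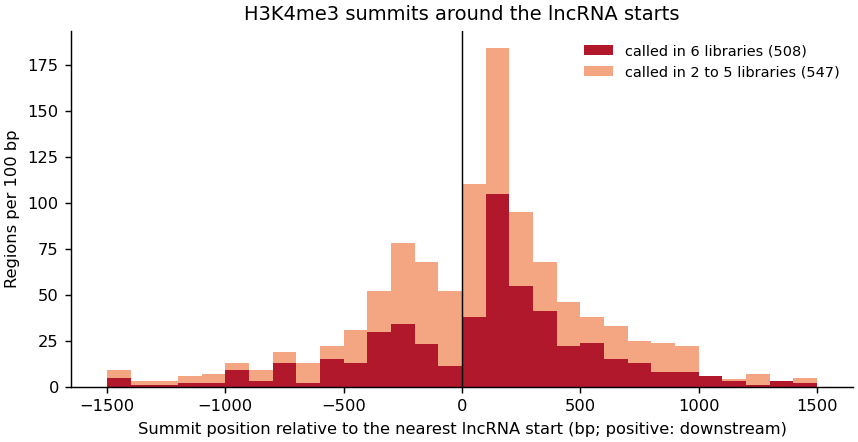
Position of the strongest summit relative to the nearest lncRNA start (bp, positive is downstream, values beyond the axis are in the outermost bars) for the 508 lncRNA promoters called in 6 libraries (dark) and the 547 called in 2 to 5 (light), in regions per 100 bp. The tallest bar is just downstream of the start, a smaller group of summits lies upstream, and 63.4% of all 1055 are downstream.

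The 1055 regions belonged to 985 lncRNA genes, 57 of which had several regions. MIR100HG had the most with 5, and its regions lie along 1 gene, so they are not independent promoters of different genes. By symbol, 571 regions were at genes known only by an Ensembl ID, 208 at LINC genes, 58 at antisense (-AS) genes, 34 at microRNA hosts, 13 at SNHG genes, 3 at divergent-transcript (-DT) genes, 1 at an -IT or -OT gene and 167 at others. Calling in all 6 libraries was seen in 12 of the 13 SNHG regions (92.3%), 21 of the 34 microRNA-host regions (61.8%), 29 of the 58 antisense regions (50%), 252 of the 571 regions with only an ID (44.1%) and 77 of the 208 LINC regions (37.0%). Median lengths of these 5 classes were 1847, 1417.5, 1132.5, 943 and 943 bp. The 167 regions at genes with other symbols were called in all 6 libraries in 115 cases (68.9%), more often than the microRNA hosts, with a median length of 1169 bp.

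Taking all lncRNA promoters, 508 (48.2%) had a peak in all 6 libraries, against 59.1% of all 18734 regions, 76.0% of coding promoters and 15.1% of distal regions. Leaving vehicle replicate 3 out, 642 (60.9%) had a peak in the other 5, against 67.3% of all regions. Another 167 were called in 5 libraries, 111 in 4, 113 in 3 and 156 in 2. Of the 167 called in 5, 134 lacked only vehicle replicate 3 and 24 lacked only OA replicate 1, the libraries with the fewest calls in each group.

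Chromosome 1 held the most lncRNA promoters, 131. Chromosome 21 stood out by share, since 39 of its 258 regions (15.1%) were lncRNA promoters, and 22 of these lay in the first 11 Mb, of which 21 had multicopy sequence as defined next. A window was called multicopy where at least 50% of its 50-base pieces occurred elsewhere on the same chromosomes of hg38. This held for 188 lncRNA promoters (17.8%), for 1.60% of coding promoters and for 24.3% of distal regions. How the authors' alignment placed reads from such sequence is not given in the sources used here, so the values at these 188 regions are uncertain between copies.

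The 8 strongest lncRNA promoters, ranked by their lowest percentile over the 6 libraries, were at LINC01145, ENSG00000291068, ENSG00000290832, LINC00869, ENSG00000274265, ENSG00000259553, WASH2P and ENSG00000290948, and all 8 were multicopy. Among the 50 strongest, 23 (46.0%) were. At LINC01145 the fold enrichment over background was 11.6, 12.4 and 16.8 with vehicle and 10.4, 12.5 and 10.95 with OA, and the percentile was 99.6 or higher in every library. At ENSG00000259553 it was 18.0, 20.2 and 22.3 with vehicle and 12.5, 14.2 and 17.2 with OA, lower in each OA library than in any vehicle library (log2 difference −0.31 after centring, limma unadjusted p = 0.09).

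Among the lncRNA genes listed by role, 62 of 164 annotated had a lncRNA promoter here, with 80 regions in all. A further 63 had no merged region within 1 kb of a start, 37 had a region close to a coding start and 2 had a region of 3000 bp or more. Of the 80 regions 49 (61.3%) were called in all 6 libraries, where 59.1% of all regions were. Only 1 was called in the 3 OA libraries alone, where 1.84% of all regions were. None was called in the 3 vehicle libraries alone, where 0.0801% of all regions were. Only 4 of the 80 were multicopy, among them CYTOR (80.1% of pieces) and MIR4435-2HG (76.9%), near-identical copies of each other whose peaks cannot be separated.

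Among DNA damage and stress lncRNAs, NORAD, which binds PUMILIO proteins and helps keep chromosome number stable, was with DLEU2 the strongest single-copy promoter on the lists. Its region, chr20:36049323-36051012, had a fold enrichment of 9.05, 10.8 and 13.9 in vehicle and 7.86, 8.80 and 10.4 in OA, with percentiles from 88.2 to 99.2, and was also called in both untreated libraries. The groups overlapped (log2 difference −0.14, SE 0.17, limma adjusted p = 0.863). LINC-PINT, a p53-induced transcript, had 2 regions, each called in 4 libraries. PANDAR and LUCAT1 had no region, and TP53TG1, NKILA and OIP5-AS1 had regions close to a coding start.

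Of 31 snoRNA hosts, 15 had a lncRNA promoter, 14 had a region close to a coding start and 2 had no region. The 15 hosts, with 16 regions, were the most regularly marked of the larger lists. Of these regions 15 (93.75%) were called in all 6 libraries, against 48.2% of all lncRNA promoters and 59.1% of all regions. The median length was 1868.5 bp. A peak in both untreated libraries was found at 14, against 25.1% of all lncRNA promoters and 47.0% of all regions. The host genes carry snoRNAs, which guide the modification of ribosomal RNA, in introns. SNHG15 had a fold enrichment of 8.03, 8.03 and 11.6 in vehicle and 5.92, 11.1 and 10.5 in OA. EPB41L4A-AS1 had 9.47, 11.5 and 9.47 in vehicle and 10.7, 14.4 and 12.2 in OA, overlapping between the groups (log2 difference 0.46, SE 0.16, limma unadjusted p = 0.0127, adjusted p = 0.598). The exception was a second region of SNHG32, downstream of its constitutive promoter, which was called in vehicle replicates 1 and 2 only.

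Of 83 microRNA hosts, 26 had a lncRNA promoter, with 37 regions. Of these regions 22 (59.5%) were called in all 6 libraries, against 48.2% of all lncRNA promoters and 59.1% of all regions. MIR205HG, host of the basal-epithelial miR-205, lay at chr1:209428418-209431408 and had a fold enrichment of 3.58, 4.86 and 6.78 in vehicle and 3.81, 5.82 and 5.03 in OA. MIR31HG, chr9:21558567-21559906, had 6.33, 8.27 and 8.37 in vehicle and 6.90, 8.67 and 8.17 in OA. Both were also called in both untreated libraries, and in both the groups overlapped (limma adjusted p = 0.893 and 0.791). MIR17HG, host of the miR-17 cluster, had 6.92, 7.34 and 9.01 in vehicle and 6.73, 7.06 and 9.10 in OA, which overlapped as well (adjusted p = 0.875).

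Some hosts were marked less evenly. The 5 regions of MIR100HG were called in 3 to 5 libraries each and in neither untreated library, and the region of MIR222HG, host of miR-221 and miR-222, in vehicle replicate 2 and OA replicates 2 and 3. MIR210HG, host of the hypoxia-induced miR-210, had a fold enrichment of 8.06, 7.83 and 3.87 in vehicle and 7.12, 11.6 and 10.1 in OA, with the lowest value in vehicle replicate 3 (log2 difference 0.76, SE 0.28, limma unadjusted p = 0.0206, adjusted p = 0.616). Without that library the log2 difference was 0.37 (SE 0.15, limma adjusted p = 0.478). MIR137HG had 8.61, 11.7 and 7.97 in vehicle and 9.86, 12.7 and 13.4 in OA, again overlapping (log2 difference 0.52, SE 0.17, unadjusted p = 0.0116, adjusted p = 0.598 by limma).

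Of the nuclear-body scaffolds, NEAT1, which builds paraspeckles, had a region at its 5′ end, chr11:65422899-65424827, called in all 6 libraries, with a fold enrichment of 3.44, 4.28 and 5.97 in vehicle and 3.50, 4.13 and 2.71 in OA. Within the gene another NEAT1 region was called in 4 libraries. MALAT1, found in nuclear speckles, had 3 regions inside or at the start of the gene, called in 5, 2 and 2 libraries, none in all 6. Of the X inactivation genes JPX and FTX were called in all 6 libraries and FIRRE had no region. JPX had a fold enrichment of 14.4, 13.8 and 19.8 in vehicle and 11.05, 13.0 and 10.47 in OA, each OA value below each vehicle value (log2 difference −0.30, SE 0.19, limma adjusted p = 0.753).

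KCNQ1OT1, the imprinted antisense transcript within KCNQ1, was called in all 6 libraries, whereas H19 and MEG3 had no region. DANCR, which holds epithelial cells undifferentiated, had a fold enrichment of 5.68, 6.84 and 7.98 in vehicle and 5.97, 7.78 and 9.68 in OA. HOTTIP had no region, and HOTAIR and HOTAIRM1 had regions close to a coding start. On the cancer-associated list, 13 of 30 annotated genes had 15 regions. Of these, 6 (40%) were called in all 6 libraries, against 48.2% of all lncRNA promoters and 59.1% of all regions. LINC00511, called in all 6, had a fold enrichment of 5.06, 5.68 and 8.83 in vehicle and 4.97, 6.02 and 5.06 in OA. DLEU2, the host of the miR-15a and miR-16 cluster, had both of its regions called in all 6. PVT1, the neighbour of MYC, had 3 regions called in 5, 5 and 4 libraries, none of them in vehicle replicate 3. The strongest PVT1 region had a fold enrichment of 6.23 and 8.38 in vehicle replicates 1 and 2 and of 5.36, 8.66 and 6.29 in OA.

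**Figure D3:**
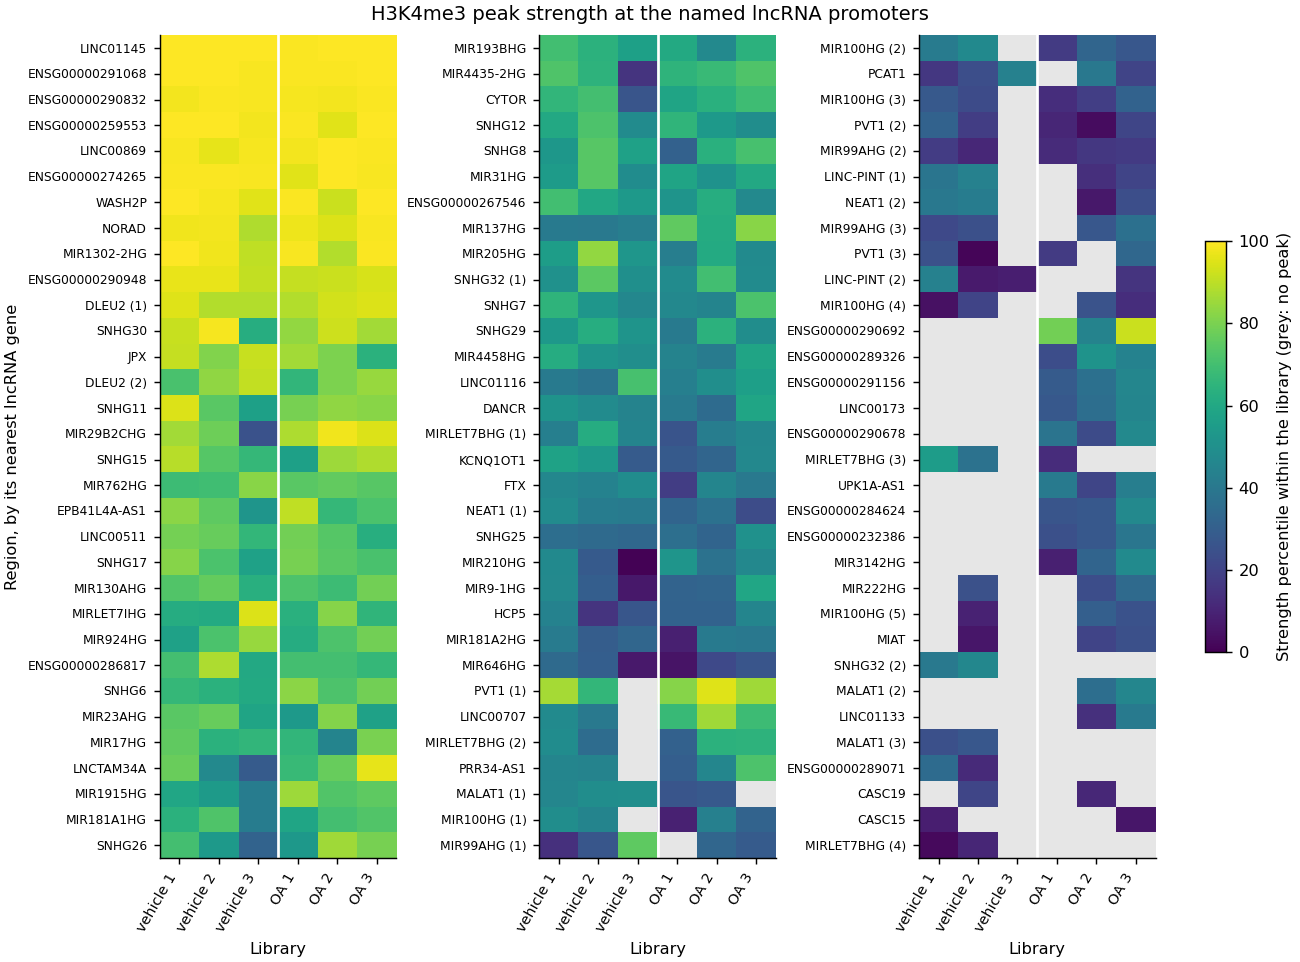
Strength percentile (colour, 0 to 100, within each library) of the named lncRNA promoters in the 3 vehicle and 3 OA libraries, 1 row per region, ordered by the number of libraries with a peak and then by mean percentile, with grey where no peak was called. The 8 strongest and NORAD lie at the top of the left panel, at or above 88.2 in every library, and the OA-only regions appear in the right panel as rows coloured in all 3 OA columns and in no vehicle column.

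Calls restricted to the OA group were few. A peak in all 3 OA libraries and in no vehicle library was found at 28 lncRNA promoters (2.65%), where 1.84% of all regions have that pattern. The opposite pattern was found at 0 lncRNA promoters, where 0.0801% of all regions have it. With at least 2 libraries of a group and none of the other, the counts were 100 (9.48%) for OA, with 7.7% over all regions, and 20 (1.90%) for vehicle, with 1.99% over all regions. The shares at lncRNA promoters thus lay near those of all regions, and the difference was not tested. The OA-only count was 28 (2.65%) without vehicle replicate 3, where 1.93% of all regions had the pattern, 67 (6.35%) without vehicle replicate 1, with 4.07% of all regions, and 88 (8.34%) without OA replicate 1, with 6.26%. The vehicle-only count was 18 (1.71%) without vehicle replicate 3, with 1.53% of all regions.

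The OA-only promoters carried weak peaks. Their median percentile was 18.1, 21.8 and 39.4 in OA replicates 1 to 3, and their lowest percentile was under 25 in 24 of 28. None had a peak in an untreated or an IgG library. An untreated peak was found at 60.3% of all regions and 42.5% of lncRNA promoters, but at only 3.54% of those called in 3 libraries. An IgG peak was found at 931 of all 18734 regions. An H3K27me3 peak in some library was found at 3 of the 28 (10.7%), against 7.09% of all regions and 7.96% of lncRNA promoters called in 3 libraries. The exception in strength was ENSG00000290692, at chr16:30205787-30206657, 4714 bp from the start of SULT1A3, with a fold enrichment of 8.34, 11.4 and 14.1 and percentiles of 78.6, 44.6 and 91.9. It was multicopy, with 80.1% of its pieces found elsewhere, as was ENSG00000290678 beside SULT1A4 on the same chromosome.

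The next strongest OA-only promoters lay under the multicopy limit. LINC00173 had a fold enrichment of 6.47, 11.1 and 10.4 in the OA libraries. ENSG00000291156 near AGRN had 5.38, 7.53 and 7.17, and ENSG00000289326 near MRPL33 had 5.69, 11.9 and 8.07. OA replicate 1 was thus the lowest of the 3 at each. ENSG00000284624 near OSBPL11 had 6.32, 9.62 and 11.5. ENSG00000232386 had 6.68, 9.62 and 11.3 and lay 27236 bp from the start of ALDH1A3, which encodes a retinaldehyde dehydrogenase. UPK1A-AS1 had 7.79, 7.77 and 12.3 and lay 6296 bp from the start of UPK1A, which encodes a urothelial membrane protein. On the lists by role, MIR3142HG was OA-only, with a fold enrichment of 4.46, 10.1 and 12.3 and percentiles of 8.91, 32.2 and 47.9. It hosts miR-146a, a regulator of NF-kB signalling. Where peaks had to cover at least 50% of the region, 5 of the 8 strongest OA-only promoters were no longer called in all 3 OA libraries, with 2 left at LINC00173, ENSG00000232386, ENSG00000289326 and ENSG00000290678 and 1 at ENSG00000284624. A region without a peak is not one without H3K4me3, since the signal below the peak caller's threshold is not in the lists.

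**Figure D4:**
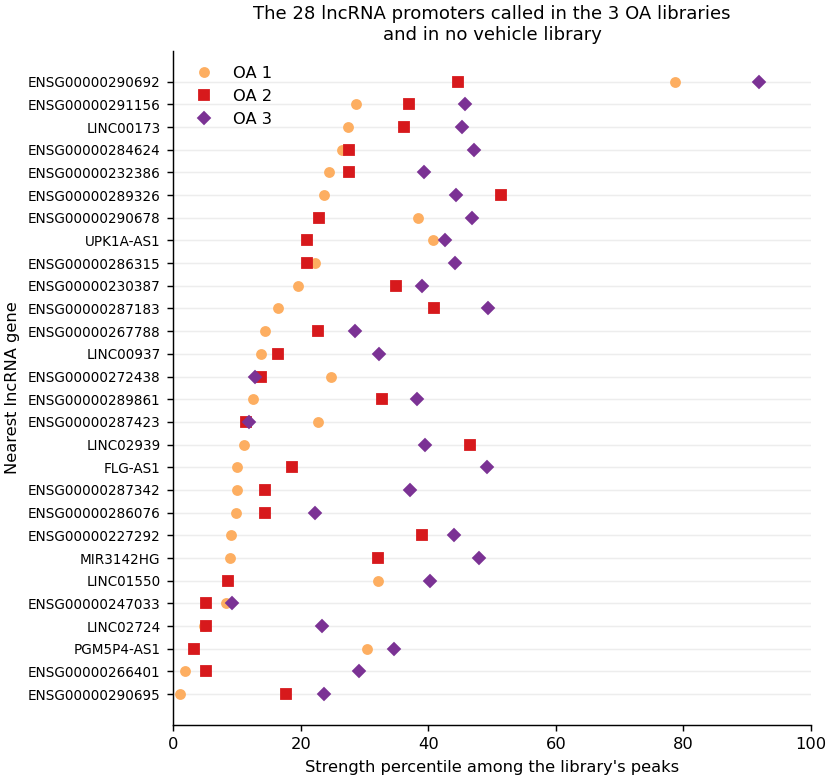
Strength percentile of each of the 28 OA-only lncRNA promoters in OA replicate 1 (circles), 2 (squares) and 3 (diamonds), ordered by the lowest of the 3. Most points lie below 50, and ENSG00000290692 reaches 91.9 in OA replicate 3.

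Fold enrichment and length were compared region by region with limma where all 6 libraries had a peak, in 11071 regions including 508 lncRNA promoters, on log2 values centred on each library's median. For fold enrichment, 0 lncRNA promoters were higher and 0 lower in OA at an adjusted p below 0.05, where 0.00903% of all regions were higher and 0% lower. For length the counts were 0 and 0, where 0% and 0% of all regions were called. At an unadjusted p below 0.05, limma had 59 lncRNA promoters higher and 8 lower in fold enrichment, where 4.47% and 2.94% of all regions were, and 33 longer and 12 shorter, where 4.35% and 3.8% of all regions were. As shares of the 508, the fold enrichment counts were 11.6% and 1.57%. Without vehicle replicate 3 there were 47 higher and 18 lower, 9.25% and 3.54% of the 508 (4.96% and 3.91% of all regions). Over all libraries left out in turn, the count higher was lowest without OA replicate 3 and highest without vehicle replicate 1. Without OA replicate 3 it was 26 (5.12%), with 0 lower (2.11% and 1.25% of all regions). Without vehicle replicate 1 it was 86 (16.9%), with 9 lower (6.64% and 4.06% of all regions). For length there were 17 longer and 7 shorter without OA replicate 2 (2.67% and 3.01% of all regions), 14 and 9 without OA replicate 3 (2.19% and 2.82%) and 38 and 6 without vehicle replicate 2 (4.59% and 2.30%).

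The median log2 difference in fold enrichment was 0.11 at lncRNA promoters and −0.01 over all regions. Without vehicle replicate 3 it was 0.03 at lncRNA promoters and 0.0003 over all regions. Without centring the medians were −0.06 and −0.18. The unadjusted counts became 17 higher (3.35%) and 11 lower (2.17%), where 1.19% and 4.86% of all regions were. The median at lncRNA promoters thus changed sign with the centring, and lay above that of all regions with and without it. Regions are not replicates, and this difference between the sets was not tested. For length the median was 0.05 at lncRNA promoters and −0.03 over all regions. Without centring these were 0.21 and 0.13, and 21 lncRNA promoters were longer and 0 shorter at an unadjusted p below 0.05 by limma, where 2.24% and 0.163% of all regions were.

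The lowest adjusted p of a lncRNA promoter was at ENSG00000251417 on chromosome 16, a region chosen after its values were seen, with a fold enrichment of 6.30, 6.46 and 7.098 in vehicle and 9.63, 14.4 and 12.5 in OA. Each OA value lay above each vehicle value (log2 difference 1.03, SE 0.16, limma adjusted p = 0.18). Among lncRNA promoters it alone passed without vehicle replicate 3 (log2 difference 1.04, limma adjusted p = 0.0237), where 0.0271% of all regions were higher. The nearest coding start, ATXN2L, was 18966 bp away.

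Sequence differed with the number of libraries that called a promoter. From 2 to 6 libraries the median region length was 475, 601, 739, 1050 and 1273 bp and the median GC content 55.3, 58.3, 57.7, 62.0 and 65.0%. Over all lncRNA promoters the median GC content was 61.7% and the CpG observed-to-expected ratio 0.679, against 67% and 0.779 at coding promoters and 50.3% and 0.406 at distal regions.

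The heptamers TGACTCA and TGAGTCA, which the AP-1 family (FOS and JUN proteins) binds, were searched on both strands of each window. They were found in 94 lncRNA promoters (8.91%), in 2.98% of coding promoters, 20.02% of distal regions and 7.47% of all regions. From 2 to 6 libraries the share at lncRNA promoters was 19.9, 16.8, 17.1, 7.78 and 2.36%, and it fell to about the same level in distal regions called in 6 libraries, 2.31%. Of the OA-only promoters 4 of 28 held the motif (14.3%). Region length and GC content varied with the number of libraries too, and their part in this was not tested.

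Of the listed regions, 4 held the motif, and the sequence around it is printed for 3 of them on the plus strand, 61 bases each with the motif in capitals. CASC15, chr6:22236849-22236909, was called in vehicle replicate 1 and OA replicate 3 only. MIRLET7BHG, chr22:46086259-46086319, was called in 2 vehicle libraries, and SNHG11, chr20:38446759-38446819, in all 6.
CASC15: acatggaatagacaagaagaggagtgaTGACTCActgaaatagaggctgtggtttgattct
MIRLET7BHG: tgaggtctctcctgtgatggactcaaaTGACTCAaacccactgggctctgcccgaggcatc
SNHG11: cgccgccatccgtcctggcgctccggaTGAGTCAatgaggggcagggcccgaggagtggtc

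The motif lay 12, 20 and 30 bases from the summit in these 3. The fourth was the weakest PVT1 region. Other promoter motifs, also on both strands, were the GC box (GGGCGG) in 46.7% of lncRNA promoters and 50.3% of all regions, CCAAT in 21.9% and 19.9%, the E-box CAGGTG in 26.9% and 24.4%, TATAAA in 4.55% and 4.78%, and the ETS site CCGGAAG in 7.20% and 7.76%. The AP-1 heptamers are the reverse complement of each other, no match was dropped for overlapping another, and a match describes the letters only.

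**Figure D5:**
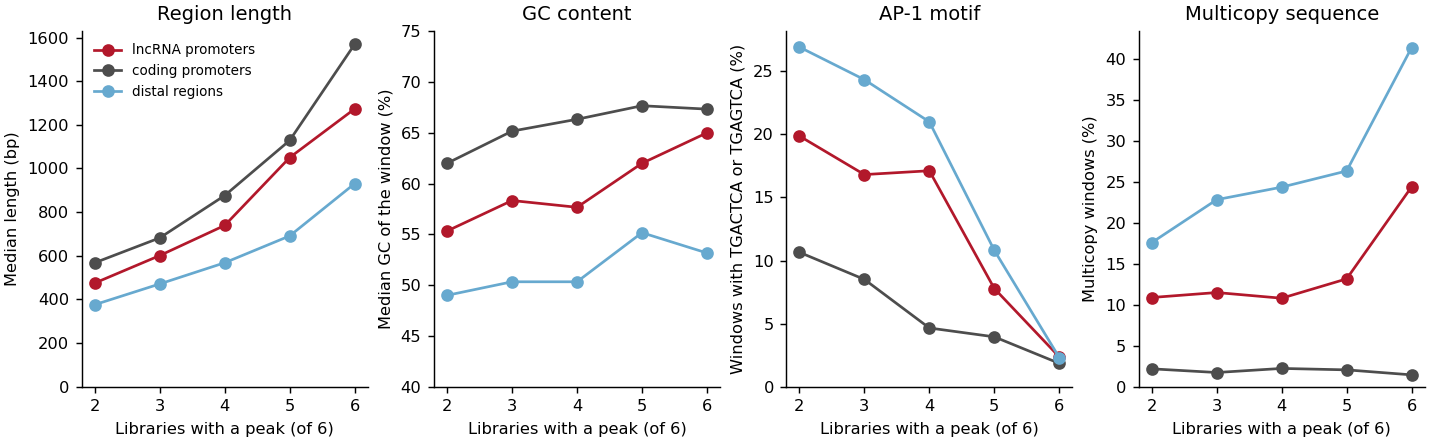
Median region length (bp), median GC content of the 300-base window (%), share of windows with TGACTCA or TGAGTCA (%) and share of multicopy windows (%), by the number of the 6 libraries with a peak, for lncRNA promoters (red), coding promoters (grey) and distal regions (blue). The GC axis starts at 40. Length rises from 2 to 6 libraries in all 3 sets, with lncRNA promoters between the others, the AP-1 share is lower at 6 than at 2 libraries in each set, and the multicopy share of lncRNA promoters reaches 24.4% at 6 libraries.

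H3K27me3 peaks were found at few of these promoters. A peak was called at 17, 17 and 22 of the 1055 in vehicle and at 35, 22 and 9 in OA, with means of 18.7 ± 2.89 and 22 ± 13.0 (SD, n = 3; exact permutation p = 0.8, adjusted p = 1). The H3K27me3 lists differed in size, with 18801, 47648 and 28850 peaks in the vehicle libraries and 32363, 25540 and 9091 in the OA libraries. With equal numbers of H3K27me3 peaks the difference between the means fell from 3.33 to 0.667 (exact permutation p = 0.9). Counting any of the 6 libraries, 57 (5.40%) had a peak, against 7.09% of all regions, 4.58% of coding promoters and 15.98% of distal regions. Among the 57 were 34 with a peak in a single library, 11 in at least 4 and 6 in all 6. Of the 57, 24 (42.1%) were multicopy. The average share, 1.93%, was below the 5.92% of distal regions in 6 of 6 libraries (exact permutation p = 0.031, adjusted p = 0.0357) and was not separated from the 1.41% of coding promoters (exact permutation p = 0.125). Without multicopy windows the difference from distal regions shrank from −3.99 to −1.54 points, with the same direction (exact permutation p = 0.031). Distal regions also had IgG peaks more often, at 15.6% and 16.5% against 1.52% and 0.948% of lncRNA promoters. The H3K27me3 difference was not recomputed without regions that had an IgG peak.

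The 11 with H3K27me3 in at least 4 libraries included 3 regions at ROCK1P1 on chromosome 18 and ENSG00000280136 on chromosome 17, which were multicopy and had a peak in both IgG libraries. LINC01833 on chromosome 2 was single-copy with no IgG peak, had H3K27me3 in 3 vehicle and 2 OA libraries and an H3K4me3 peak in only 2 libraries. These members were chosen after their values were seen. Of the 18 lncRNA promoters with an IgG peak, 12 were multicopy, and leaving all 18 out kept the OA-only count at 28.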

How the data were processed

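CUT&RUN peak lists of 16 libraries of MCF-10A cells were used. The authors called H3K4me3 and IgG peaks with MACS2 2.2.7.1 in each library separately and, per the methods, H3K27me3 peaks with SICER2, although the deposited H3K27me3 lists have the layout of MACS2 broad peaks. The build was hg38, and DiffBind 3.9 and ChIPseeker 1.8.6 are named for later steps. The aligner, the treatment of duplicates and the control library are not given in the sources used here. The deposited fold enrichment (a ratio of the summit's pileup to background) and the deposited −log10 p-values and −log10 q-values (q of at most 0.01 for H3K4me3 as the files show) were used as they stand. Read counts are not in the lists, so DiffBind could not be repeated.

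Regions were built as described in the report, with a call where a peak overlapped by 1 bp. Libraries, the replicates, were compared by two-sided exact permutation tests (3 against 3, smallest p 0.1), sets of regions by exact sign-flip tests over libraries, and regions by limma 3.58.1 with trend in R 4.3.3 on median-centred log2 values, with Benjamini-Hochberg adjustment over all regions tested at 0.05. The limma step was tested on simulated data. Other work used Python 3.11.15, numpy 2.4.6, pandas 2.3.3, scipy 1.17.1 and matplotlib 3.10.9. The background per library was recovered by finding the pileup that gives the deposited fold and Poisson p together. The design's share of repeat-masked bases could not be computed because the reference holds no soft-masking, and a count of 50-base pieces found elsewhere replaced it. Same-numbered vehicle and OA libraries had correlations of their deviations of −0.045, 0.193 and −0.287 for fold enrichment, so the numbers were not used as pairs.

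Members and lists were chosen with earlier results of these data known. Named were listed lncRNA genes by role, the 8 strongest members by lowest percentile, up to 8 OA-only and 5 vehicle-only members by the same measure, members past the limma threshold (none) and the 2 regions nearest each side of 3000 bp. Alternatives are given in the closing section, and that without multicopy windows was added after the data were seen.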

Additional observations from a re-analysis of the deposited data

How the results depend on the processing

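Peak lists hold no reads, so weak H3K4me3 below the caller's threshold, equal depth and a test at regions lacking a peak in some library were out of reach, and 3 against 3 libraries cannot give an exact permutation p under 0.1. The alternatives were a q of at most 1e-05, equal numbers of peaks, 50% cover of a region by its peaks, regions called in any library, the 5′ ends of genes, regions without IgG peaks, other centrings and, chosen after seeing the data, no multicopy windows. Apart from results without a library, 109 of 122 recomputed values were labelled the same as the main value. For differences with an exact permutation p, this label means the same direction and side of the threshold. Many of the 122 have no p, such as region numbers, OA-only counts, limma counts and library counts at named OA-only promoters. For these the label means only a value near the main one. An OA-only count of 19 at a q of at most 1e-05, for example, was labelled the same as 28. The OA minus vehicle difference in strength percentile, 0.98, became −0.937 with equal numbers of peaks and −2.69 with 50% cover. The vehicle-only count became 1 with equal numbers of peaks and with the 5′ ends of genes. With at least 2 libraries of a group the OA-only count was 100 and the vehicle-only count 20. The H3K27me3 difference in members became −3.67 at a q of at most 0.01, and the H3K27me3 share minus that of coding promoters became −0.289 points without multicopy windows. The cause of these changes was not tested.

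Leaving out each library in turn gave differences of 49.7 to 217 members called, 26.7 to 170 bp, −1.64 to 3.33 in percentile and −3.17 (without OA replicate 1) to 9.83 members with H3K27me3. OA-only counts ran from 28 to 88 and vehicle-only counts from 0 to 18 (without vehicle replicate 3), and from 0 to 1 members were higher by limma. Against coding promoters the ranges were −14.3 to −9.83 points called, −409 to −369 bp and −21.8 to −20.4 in percentile, and against distal regions 20.2 to 23.2 points, 377.9 to 422.6 bp, 16.1 to 19.1 in percentile and −4.58 to −2.60 points with H3K27me3. With 5 libraries no sign-flip p can be under 0.0625. With the replicate number as a block (replicate block) the differences stayed 146 members, 99.8 bp, 0.98 and 3.33, with exact sign-flip p of 0.75, 0.75, 1 and 0.75 (smallest possible 0.25), and limma called 0 members in each direction for fold enrichment and length. Whether same-numbered libraries share more than a number is not stated in the labels.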
